A study of Mus musculus with 55 samples.

Results

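GABA is the main inhibitory transmitter of the forebrain, and 30 genes of the GABA synapse and of interneuron identity were followed here in cultured mouse neurons. They were a fixed list of named genes, 30 of 29684 genes with a symbol in the count tables. By role they were GABA synthesis, packing, uptake and breakdown (Gad1, Gad2, Slc32a1, Slc6a11 and Abat), subunits of GABA-A receptors (Gabra2, Gabra3, Gabra4, Gabra5, Gabrb1, Gabrb2, Gabrg1, Gabrg3 and Gabrd), the GABA-B receptor (Gabbr1 and Gabbr2), scaffold and adhesion at the inhibitory synapse (Gphn and Nlgn2), chloride transport (Slc12a2 and Slc12a5), interneuron transcription factors with a non-coding RNA of the Dlx locus (Lhx6, Dlx1, Dlx2, Dlx5, Sp9 and Dlx6os1), and interneuron markers (Pvalb, Calb2, Erbb4 and Reln). Each gene was represented by its RefSeq transcript with the most counts.

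The cultures came from cortex and hippocampus of CD1 mouse embryos of mixed sex at embryonic day 16 to 17.5, without any transgene, and were grown for days in vitro (DIV) as neuron-enriched primary cultures. In the maturation experiment, 28 libraries came from 7DIV and 23DIV cultures that were left unstimulated (basal), depolarized with 55 mM KCl, or treated with 50 µM bicuculline, a blocker of GABA-A receptors, plus 2.5 mM 4-aminopyridine, a blocker of potassium channels, for 15 or 180 min. Groups held 3 libraries, apart from bicuculline with 4-aminopyridine at 23DIV, which held 2 at each time. In the stimuli experiment, 27 libraries came from 21DIV cultures that were basal (3 libraries), or treated with 55 mM KCl or 50 µM bicuculline alone for 15, 45 or 180 min (2 libraries at each time). A further set was silenced with 1 µM tetrodotoxin (TTX), a blocker of sodium channels, for 48 h and sampled still in TTX (basal TTX, 4 libraries) or 15, 45 or 180 min after its withdrawal (TTXw; 3, 2 and 3 libraries). Basal wells of the stimuli experiment were not silenced, and basal TTX was the control for withdrawal. Per the study's methods, TTX was removed by repeated exchange for fresh medium, and its control neurons were washed in the same way. Wells of KCl, bicuculline and their basal control had only a small part of the medium replaced. Basal TTX and basal libraries may thus differ in handling too. The labels do not say which libraries came from separate dissections, so p-values measure only the spread between these samples, which may be technical. Bicuculline blocks the receptors whose subunit genes are on the list.

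GABA is made from glutamate by the decarboxylases GAD67 and GAD65, the products of Gad1 and Gad2, and is packed into vesicles by the transporter VGAT, the product of Slc32a1. It opens GABA-A receptors, chloride channels built of several subunits that gephyrin and neuroligin 2 hold at the synapse, and it also acts through the G-protein-coupled GABA-B receptor. Whether a GABA-A channel excites or inhibits depends on chloride inside the cell, which the importer NKCC1 (Slc12a2) raises and the exporter KCC2 (Slc12a5) lowers, and a shift from the importer to the exporter is known to accompany maturation of forebrain neurons. Interneurons, the main forebrain cells that release GABA, arise in the ventral telencephalon under the control of Dlx, Lhx6 and Sp9 transcription factors.

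Counts on genes per library ranged from 1659722 to 4474968 at 7DIV (median 2867836, n = 15), from 1784170 to 14012872 at 23DIV (median 5088478, n = 13) and from 1177500 to 3909487 in the stimuli experiment (median 2384138, n = 27). Values below are in CPM, counts scaled to a common library total after normalization, given for each library in order of replicate number. A gene was tested where it passed 5 CPM in at least 2 libraries of the fit, and was called where edgeR's quasi-likelihood test gave an adjusted p under 0.05 and the change was at least 1.5-fold. The libraries were 3′-end libraries, so levels of different genes are not ranked against each other. The summed level of 6 neuronal markers (Rbfox3, Map2, Snap25, Tubb3, Syt1 and Stmn2) was 9339 to 9514 CPM in 7DIV basal libraries, 6043 to 7092 at 23DIV, 7853 to 8464 in 21DIV basal, 5819 to 6990.4 in basal TTX and 3664 to 4635 at 180 min of TTXw. The summed level of 12 astrocyte markers was 528 to 794, 4445 to 5629, 2488 to 3042, 7067 to 8219 and 10499 to 14949 CPM in the same groups. The summed level of 5 microglial markers was 10.4 to 17.8 CPM in 7DIV basal, 4.11 to 8.82 in 23DIV basal, 7.16 to 8.56 in 21DIV basal and 2.53 to 4.07 in basal TTX libraries. These markers lay near the floor, with C1qa, C1qb and Cx3cr1 at 0 in 24, 23 and 16 of the 28 libraries of the maturation experiment. Only 1 microglial marker could be tested between basal stages. These are bulk cultures, so fewer cells of a type and less RNA per cell cannot be told apart.

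Gabrd, the delta subunit of extrasynaptic GABA-A receptors, was too low to measure in every fit, with a range of 0 to 1.36 CPM at 7DIV, 1.19 to 4.61 at 23DIV and 0 to 5.07 over the stimuli experiment. Dlx5, a homeobox factor of the ventral telencephalon, reached 9.43 CPM at 7DIV and 7.59 in the stimuli experiment and was tested only in the fit over all 28 libraries of 7DIV and 23DIV. Pvalb, the calcium-binding protein parvalbumin of fast-spiking interneurons, was too low to test in the stimuli experiment, where it reached 6.97 CPM. In all, 28 of the 30 genes were tested between basal stages, 29 with the stimuli at 7DIV and 23DIV, and 27 at 21DIV. Gabbr2, the ligand-independent subunit of the GABA-B receptor, was tested in each fit but varied more than most between replicates, with 3.58 to 27.8 CPM among the 4 basal TTX libraries.

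The list is unevenly spread over the genome. Of the 30 genes, 8 lie on chromosome 2, among them Dlx1 and Dlx2, which are 9.43 kb apart, and Gad1, which is 926 kb from Dlx1. Gabrg1, Gabra2, Gabra4 and Gabrb1 lie in a cluster on chromosome 5, with 116 kb between Gabrg1 and Gabra2 and 474 kb between Gabra2 and Gabra4. Gabrg3 and Gabra5 are 20.5 kb apart on chromosome 7. Promoters are shown for Gad1, Gad2 and Slc32a1, whose RNA moved together between stages and after TTXw, and for Slc12a5, which had 2 annotated start sites. They come from RefSeq on GRCm38.p6, the same assembly as mm10, on the plus strand of chromosome 2, and run from 250 bases before the start site to 50 after it. In all, 25 of the 30 genes matched the promoter table.
Gad1, chr2:70561879-70562178: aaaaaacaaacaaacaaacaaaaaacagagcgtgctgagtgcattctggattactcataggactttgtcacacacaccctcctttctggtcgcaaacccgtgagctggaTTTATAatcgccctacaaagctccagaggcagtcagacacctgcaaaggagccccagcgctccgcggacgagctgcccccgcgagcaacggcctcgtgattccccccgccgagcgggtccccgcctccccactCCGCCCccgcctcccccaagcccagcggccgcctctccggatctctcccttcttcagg
Gad2, chr2:22622077-22622376: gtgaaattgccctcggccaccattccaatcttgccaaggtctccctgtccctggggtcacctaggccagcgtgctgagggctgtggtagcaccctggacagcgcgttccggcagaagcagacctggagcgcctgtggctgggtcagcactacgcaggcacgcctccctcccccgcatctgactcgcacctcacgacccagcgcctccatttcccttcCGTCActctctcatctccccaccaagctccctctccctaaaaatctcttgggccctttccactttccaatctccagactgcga
Slc32a1, chr2:158610508-158610807: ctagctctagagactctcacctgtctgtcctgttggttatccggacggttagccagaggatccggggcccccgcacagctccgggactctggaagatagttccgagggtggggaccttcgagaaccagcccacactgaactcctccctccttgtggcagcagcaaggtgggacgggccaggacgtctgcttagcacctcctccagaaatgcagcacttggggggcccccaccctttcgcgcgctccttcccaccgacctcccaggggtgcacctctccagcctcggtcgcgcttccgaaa
Slc12a5, first start site, chr2:164960596-164960895: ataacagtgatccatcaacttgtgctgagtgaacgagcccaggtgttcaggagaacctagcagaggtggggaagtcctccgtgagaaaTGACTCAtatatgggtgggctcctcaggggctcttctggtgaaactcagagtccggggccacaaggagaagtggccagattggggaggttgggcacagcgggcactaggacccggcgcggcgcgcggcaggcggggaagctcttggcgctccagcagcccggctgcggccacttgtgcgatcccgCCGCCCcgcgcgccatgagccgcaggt
Slc12a5, second start site, chr2:164967738-164968037: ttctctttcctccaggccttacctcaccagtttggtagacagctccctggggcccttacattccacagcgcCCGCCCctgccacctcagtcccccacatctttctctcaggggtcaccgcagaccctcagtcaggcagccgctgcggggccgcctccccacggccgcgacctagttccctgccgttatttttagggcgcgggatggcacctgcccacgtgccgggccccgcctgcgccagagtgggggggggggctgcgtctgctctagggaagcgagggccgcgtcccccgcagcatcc
Capitals mark matches, on either strand, to 5 letter strings. These were TGACG, the core of a cyclic-AMP response element, TGANTCA of AP-1, TAATTA of homeodomain factors, GGGCGG of the GC box and TATAAA of the TATA box, and none of these strings lies within another. Gad1 held GGGCGG starting 8 bases and TATAAA starting 141 bases before the start site, both on the minus strand. Gad2 held TGACG on the minus strand starting 33 bases before it, and Slc32a1 held no match. The first Slc12a5 window held TGANTCA starting 162 bases before the start site and GGGCGG on the minus strand 24 bases into the transcript, and the second held GGGCGG starting 179 bases before it. Of 32851 promoters of this length, 20.8% held TGACG, 7.81% TGANTCA, 5.29% TAATTA, 35.7% GGGCGG and 13.6% TATAAA. A match is a description of letters, and 3′-end counts do not tell which of the start sites of Slc12a5 was used.

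The first comparison was between unstimulated 23DIV and 7DIV cultures. The RNAs of both GABA-making enzymes, the vesicular transporter, the GABA-degrading enzyme and the chloride exporter were higher at 23DIV, and the chloride importer was lower. Of the 28 genes tested, 8 were called higher, among them Pvalb, which passed the filter on low values only through the 23DIV libraries, and 4 lower, against 33.1% of all 10510 genes tested called in either direction (18.2% higher and 14.9% lower). The median log2 fold change of the 28 was -0.03, against 0.01 over all genes tested.

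Gad1 stood at 339, 345 and 387 CPM in the 3 7DIV libraries and at 739.7, 718 and 658 in the 3 23DIV libraries. Every 23DIV library was above every 7DIV library, by a log2 fold change of 1.01 ± 0.12 (SE, adjusted p = 1.64e-05). Gad2 stood at 107, 115 and 83.97 CPM at 7DIV and at 276, 249 and 235 at 23DIV, again without overlap, with a log2 fold change of 1.35 ± 0.15 (SE, adjusted p = 1.20e-05). Slc32a1, which packs GABA into vesicles, went from 107, 151 and 97.5 CPM to 229, 174 and 170.0, a log2 fold change of 0.73 ± 0.18 (SE, adjusted p = 0.00610). This was the smallest of the called rises, and without the third of the 7DIV libraries it was 0.57, under 1.5-fold. Abat, GABA transaminase, which breaks GABA down, went from 11.4, 9.20 and 12.5 CPM to 42.2, 35.9 and 24.6, a log2 fold change of 1.63 ± 0.27 (SE, adjusted p = 2.96e-04). Slc6a11, the GABA transporter GAT3 of astrocytes, was at 16.1, 11.7 and 20.6 CPM at 7DIV and 18.8, 9.66 and 13.4 at 23DIV, with overlapping groups (log2 fold change -0.21, adjusted p = 0.616). Of the 12 astrocyte markers, of which it is one, 10 were called higher at 23DIV.

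Among receptor subunits, Gabra3 was called higher and Gabrg1 lower out of 8 tested. Gabra3, an alpha subunit expressed early in many forebrain neurons, was at 16.6, 21.5 and 17.1 CPM at 7DIV and 38.2, 62.1 and 77.2 at 23DIV, with no overlap and a log2 fold change of 1.74 ± 0.26 (SE, adjusted p = 1.55e-04). Gabrg1, a gamma subunit, was at 24.2, 16.6 and 12.5 CPM at 7DIV and 10.4, 10.2 and 7.30 at 23DIV (log2 fold change -0.89, adjusted p = 0.0378). This call was lost without any one of 4 of the 6 libraries, with the weakest value without the first 7DIV library (-0.62, adjusted p = 0.178). The differences of Gabra4 (0.58), Gabrb2 (0.44) and Gabra2 (-0.40) had an adjusted p under 0.05 but were under 1.5-fold. Gabra5, the alpha subunit of extrasynaptic receptors abundant in hippocampus, was at 447, 514 and 417 CPM at 7DIV and 262, 421 and 394 at 23DIV, overlapping groups (log2 fold change -0.33, adjusted p = 0.141).
The GABA-B receptor and the synaptic scaffold gave no call. Gabbr1, which binds GABA, had a log2 fold change of -0.21 with a 95% interval of -0.45 to 0.02, and Nlgn2, neuroligin 2, one of -0.06 with an interval of -0.33 to 0.21. Gphn, the scaffold gephyrin, was at 47.8, 57.7 and 53.9 CPM at 7DIV and 35.1, 42.03 and 33.7 at 23DIV (log2 fold change -0.50, adjusted p = 0.0407), a difference under 1.5-fold.

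The 2 chloride transporters moved in opposite directions. Slc12a5 (KCC2, the exporter) was at 40.3, 28.2 and 40.9 CPM at 7DIV and at 134, 153 and 162 at 23DIV, a log2 fold change of 2.05 ± 0.17 (SE, adjusted p = 1.02e-06). Slc12a2 (NKCC1, the importer) was at 81.9, 92.6 and 103 CPM and at 33.02, 34.3 and 26.9, a log2 fold change of -1.54 ± 0.17 (SE, adjusted p = 1.13e-05). Neither pair of groups overlapped. NKCC1 is also expressed by glia. Between the stages the astrocyte marker sums rose. The summed level of 10 markers of oligodendrocytes and their precursors rose too, from 474 to 750 CPM to 2496 to 3287, with 9 of 9 tested called higher. The microglial sums, which lay near the floor, fell. The part of glia in the change of Slc12a2 was not tested. Within each library, basal and stimulated together, the count of Slc12a5 over that of Slc12a2 was 0.305 to 0.944 at 7DIV (median 0.545, n = 15) and 2.72 to 6.04 at 23DIV (median 3.68, n = 13), so that no 7DIV library reached any 23DIV library. The ratio compares libraries and is not a ratio of molecules, since the 2 transcripts may be captured with unequal efficiency.

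**Figure D1:**
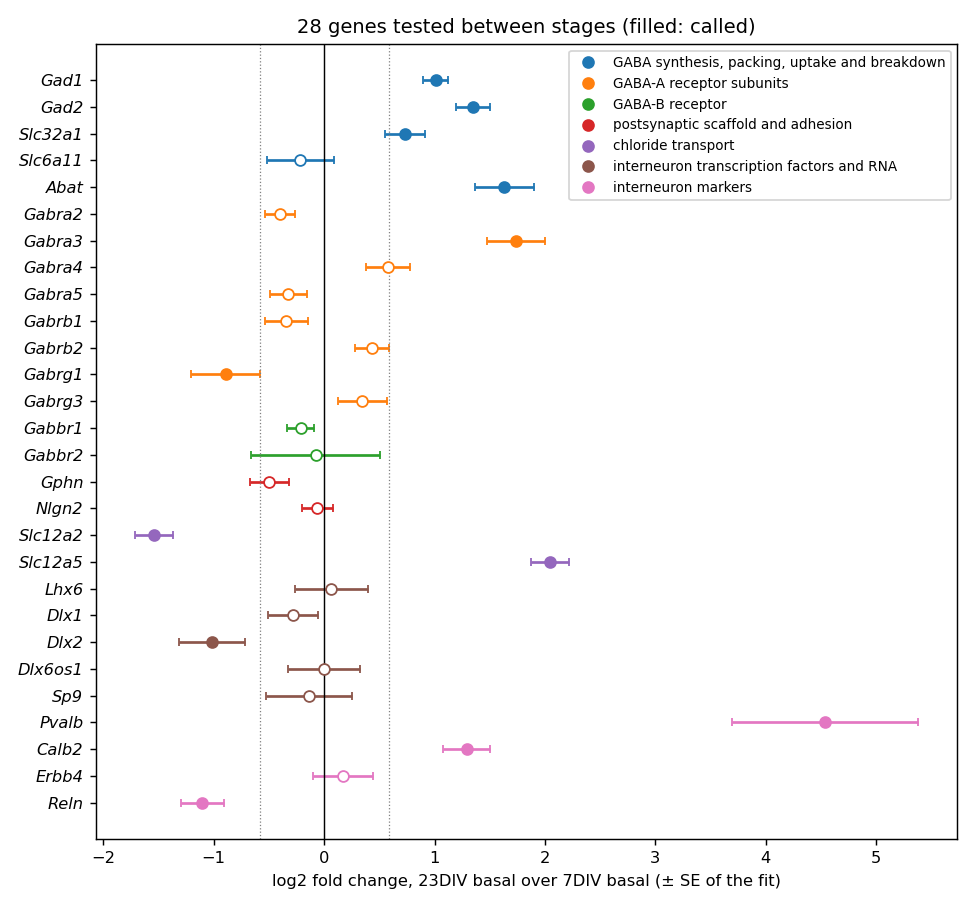
Each point is the log2 fold change of 1 gene in 23DIV basal over 7DIV basal libraries (3 against 3), with the SE of the fit as the bar, coloured by role. Filled points were called, and the dotted lines mark 1.5-fold; Slc12a5 (2.05) and Slc12a2 (-1.54) lie on opposite sides of 0, and Pvalb has the widest bar.

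**Figure D2:**
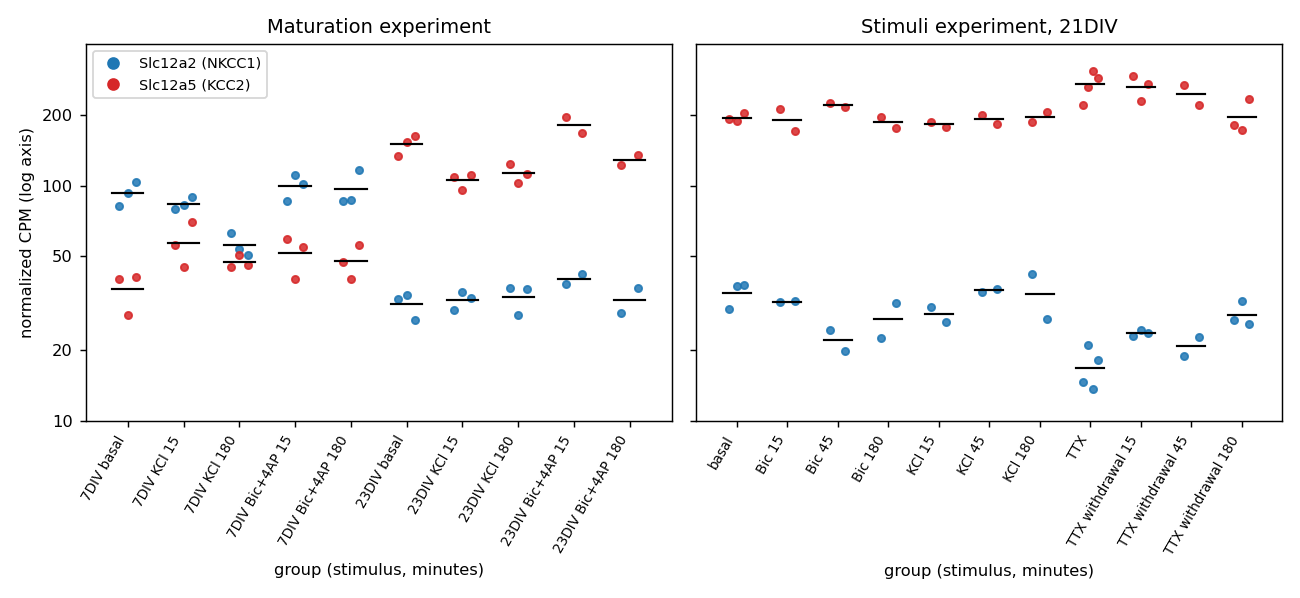
CPM of Slc12a2 (blue) and Slc12a5 (red) in every library, on a log axis, by group, with the group mean as a line. In the maturation experiment Slc12a2 lies between 50.9 and 116 CPM at 7DIV and between 26.9 and 41.9 at 23DIV, Slc12a5 between 28.2 and 70.2 and between 96.0 and 196, and in the stimuli experiment the 3 lowest Slc12a2 values are those of basal TTX libraries.

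Of the interneuron factors, 1 of 5 tested was called. Dlx2, a homeobox factor of interneuron progenitors, was at 29.4, 19.6 and 50.1 CPM at 7DIV and 14.2, 15.02 and 20.03 at 23DIV, with overlapping groups (log2 fold change -1.02, adjusted p = 0.0148), and without the third 7DIV library the value was -0.59 (adjusted p = 0.148). Lhx6, which specifies parvalbumin and somatostatin interneurons, was at 8.05, 11.7 and 10.3 CPM and 12.6, 6.97 and 10.95 (log2 fold change 0.06, adjusted p = 0.900). Dlx1 (-0.28) and Sp9 (-0.13) also gave no call, nor did Dlx6os1, at 12.8, 22.7 and 15.98 CPM and 20.2, 10.01 and 19.3, with overlapping groups in each case. Whether reads were counted by strand is not given in the sources used here, so reads of Dlx6os1 and of the Dlx6 gene that it overlaps cannot be told apart.

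Of the interneuron markers, Calb2 was called higher and Reln lower. Pvalb was called higher too, but it passed the filter on low values only through the group where it was high, so its values are given as a description. It was at 0, 1.23 and 0 CPM at 7DIV and 6.92, 5.19 and 8.52 at 23DIV, with 2 counts over the 3 7DIV libraries and 146 over the 3 23DIV libraries. That is a ratio of 26.6 after division by depth, with an exact 95% interval of 7.23 to 222 that covers counting error only. Over the whole experiment Pvalb was at 0 in 9 of the 15 7DIV libraries, and every one of the 13 23DIV libraries held between 2.83 and 9.34 CPM. Calb2, calretinin, went from 34.6, 53.4 and 38.2 CPM to 91.98, 80.7 and 126 (log2 fold change 1.29, adjusted p = 2.94e-04). Reln, the secreted protein reelin of Cajal-Retzius cells and some interneurons, went from 107, 109 and 109 CPM to 64.3, 36.1 and 47.5 (log2 fold change -1.11, adjusted p = 5.09e-04). Erbb4, the neuregulin receptor of interneurons, was at 15.2, 12.9 and 12.2 and 17.3, 15.6 and 11.5 CPM and gave no call.

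Astrocyte marker sums rose and neuronal marker sums fell between the stages. The genes were therefore also scaled to the summed counts of the 6 neuronal markers, an alternative added after the data were seen. Of these markers, 3 were called higher and 3 lower at 23DIV, with a median log2 fold change of 0.05. Stmn2 had the highest median level among them, 5510 CPM over the 28 libraries, so their sum follows it most and need not track the neuronal share. On this scale the median of all genes was 0.52 higher at 23DIV and 88.9% of calls over all genes were rises, against 54.9% on the usual scale. All 8 genes called higher kept the call, which the upward shift of this scale favours. Among them was Pvalb, whose values are given only as a description because of the filter. Of those called lower, Slc12a2 and Reln kept it, while Dlx2 (-0.52, adjusted p = 0.146) and Gabrg1 (-0.38, adjusted p = 0.363) lost it. The subunit genes Gabra4 (1.07, adjusted p = 2.44e-04), Gabrb2 (0.95, adjusted p = 2.99e-04) and Gabrg3 (0.85, adjusted p = 0.00644) were called higher on this scale only, so that it gave 11 calls higher and 2 lower.

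Other genes of the same pathways were read from lists whose members are separate from the 30. Their counts stand beside the 33.1% of all genes called in this comparison (18.2% higher and 14.9% lower). Of 8 tested genes of GABA transport and metabolism, 5 were called higher and 1 lower. They included Glul, glutamine synthetase of astrocytes (2.43 on the log2 scale), and Slc38a3, a glutamine transporter (1.67). Of 12 genes of chloride control, 3 were called higher and 2 lower, among the former Slc4a10, a bicarbonate transporter of neurons (1.10), and the carbonic anhydrase Car2 (2.85), which glia also express. Of 19 genes of receptor trafficking, 8 were called higher and 1 lower, and of 23 other interneuron markers 10 were called higher and 3 lower. Of 14 other interneuron factors, 2 were called higher and 2 lower.

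The next question was whether acute stimulation moved these genes, and whether the stage mattered. In 7DIV cultures hardly any did. None of 29 genes was called at 15 min of KCl or at 15 or 180 min of bicuculline with 4-aminopyridine by edgeR or by DESeq2, with 1 gene at an unadjusted p under 0.05 in each, and in those comparisons 0% of all genes were called. At 180 min of KCl, 1 of 29 was called, against 1.98% of all 11746 genes tested (1.05% higher and 0.936% lower). It was Slc12a2, at 63.03, 53.6 and 50.9 CPM against 81.9, 92.6 and 103 in 7DIV basal libraries, which did not overlap (log2 fold change -0.74, adjusted p = 0.0119). The call was lost without the third 7DIV basal library (-0.65), or without the second (-0.71) or the third (-0.67) KCl library. Gad1 at the same time was at 292, 192 and 239.8 CPM against 339, 345 and 387 (log2 fold change -0.57, adjusted p = 0.0813), also without overlap but not past the threshold, and without the first KCl library its log2 fold change was -0.72 and passed it.

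At 23DIV the GABA-A subunit Gabra5 fell with both stimuli. After 15 min of KCl it was at 191, 155 and 238 CPM against 262, 421 and 394 in 23DIV basal libraries, a log2 fold change of -0.88 ± 0.17 (SE, adjusted p = 0.00153). After 180 min of bicuculline with 4-aminopyridine its 2 libraries were at 148 and 151 CPM, a log2 fold change of -1.26 ± 0.20 (SE, adjusted p = 6.60e-05). Every stimulated library in both groups was below every basal library, and both calls held without each library in turn. The 2 comparisons share the basal libraries. At 180 min of KCl the value was -0.53 (adjusted p = 0.0597), and it was -0.84 and called without the first KCl library. Markers of other cells moved with these falls. The summed level of 10 markers of glutamatergic neurons was 889.6 to 1038 CPM at 15 min of KCl and 1115 to 1568 in basal libraries, with 6 of 10 called lower and 1 higher. At 180 min of bicuculline with 4-aminopyridine it was 969 to 1632 CPM, with 4 of 10 called lower and 1 higher. Their part in the fall of Gabra5 was not tested.

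After 15 min of KCl, 2 of 29 genes were called, both lower, against 6.23% of all genes (3.21% higher and 3.02% lower). The other was Gabra3, at 35.7, 37.2 and 35.2 CPM against 38.2, 62.1 and 77.2 (log2 fold change -0.72, adjusted p = 0.0441), a call that was lost without any one of 5 of the 6 libraries, the weakest being -0.48 without the third basal library. Slc12a5 was at 109, 96.03 and 111 CPM against 134, 153 and 162, without overlap (log2 fold change -0.51, adjusted p = 0.0391), but under 1.5-fold. At 180 min of KCl no gene was called by edgeR or DESeq2, against 4.89% of all genes, and 7 genes had an unadjusted p under 0.05. Without the first basal library 5 genes in all were called over the 2 times of KCl, without the first 180 min library 4, and without other single libraries 1 or 2, where with all libraries 8.84% of all genes were called at 1 or both times.

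Bicuculline with 4-aminopyridine gave no call at 15 min by edgeR or DESeq2 (3 genes at an unadjusted p under 0.05), against 0.0511% of all genes, and 4 of 29 at 180 min, all lower, against 14.2% of all genes (7.39% higher and 6.84% lower). Besides Gabra5 these were Slc6a11, Gabra4 and Calb2. Slc6a11 was at 2.58 and 7.87 CPM against 18.8, 9.66 and 13.4 (log2 fold change -1.48, adjusted p = 0.00924) and was -0.83 without the first of the 2 stimulated libraries. Gabra4 was at 56.9 and 43.7 CPM against 64.5, 88.5 and 96.6 (log2 fold change -0.72, adjusted p = 0.0192), and Calb2 at 56.003 and 57.2 against 91.98, 80.7 and 126 (log2 fold change -0.82, adjusted p = 0.0124). Each of these 2 calls was lost without any one of 3 of the 5 libraries. The summed astrocyte markers were 1679 to 3183 CPM in the stimulated and 4445 to 5629 in the basal libraries, and 5 of 12 were called lower. Oligodendrocyte markers summed to 1071 to 1728 CPM against 2496 to 3287, with 4 of 9 tested called lower and 1 higher, and microglial markers to 19.3 to 20.6 CPM against 4.11 to 8.82, with 2 of 3 tested called higher. Slc6a11 is itself one of those 12 markers, and the part of astrocytes in its change was not tested. Gad1 (-0.09), Gad2 (0.21) and Slc32a1 (0.31) had overlapping groups and were not called. On the scale of neuronal markers, where the median of all genes was 0.27 higher at 15 min of KCl and 0.19 higher here, the falls of Gabra5 kept the call, at -0.60 (adjusted p = 0.0124) and -1.04 (adjusted p = 2.43e-04), and so did that of Slc6a11 (-1.26, adjusted p = 0.0295). Gabra3, Gabra4 and Calb2 lost it, and Nlgn2 was called higher on that scale only (0.59, adjusted p = 0.00142).

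The difference between stages was tested directly as an interaction. For KCl at 15 min 1 of 29 genes passed, against 2.03% of all genes (0.860% higher and 1.17% lower). Slc12a5 was at 55.8, 45.3 and 70.2 CPM with KCl and 40.3, 28.2 and 40.9 without it at 7DIV, and at 109, 96.03 and 111 and 134, 153 and 162 at 23DIV. The response at 23DIV minus that at 7DIV was -1.12 ± 0.24 (SE, adjusted p = 0.0119) on the log2 scale, and it held without each of the 12 libraries in turn and on the scale of neuronal markers. For bicuculline with 4-aminopyridine at 180 min 2 of 29 passed, against 4.95% of all genes (2.58% higher and 2.38% lower). Gabra5 at 7DIV was at 446, 398 and 463 CPM against 447, 514 and 417, and its difference in response was -1.19 ± 0.26 (SE, adjusted p = 0.00810), which became adjusted p = 0.0587 without the first stimulated 23DIV library. The difference for Calb2 was -1.04 ± 0.31 (SE, adjusted p = 0.0476) and was lost without any one of 7 of the 11 libraries. No gene passed for KCl at 180 min (6 at an unadjusted p under 0.05, 1 by DESeq2, 0.775% of all genes) or for bicuculline with 4-aminopyridine at 15 min (1, 0 by DESeq2, 0.00851%).

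**Figure D3:**
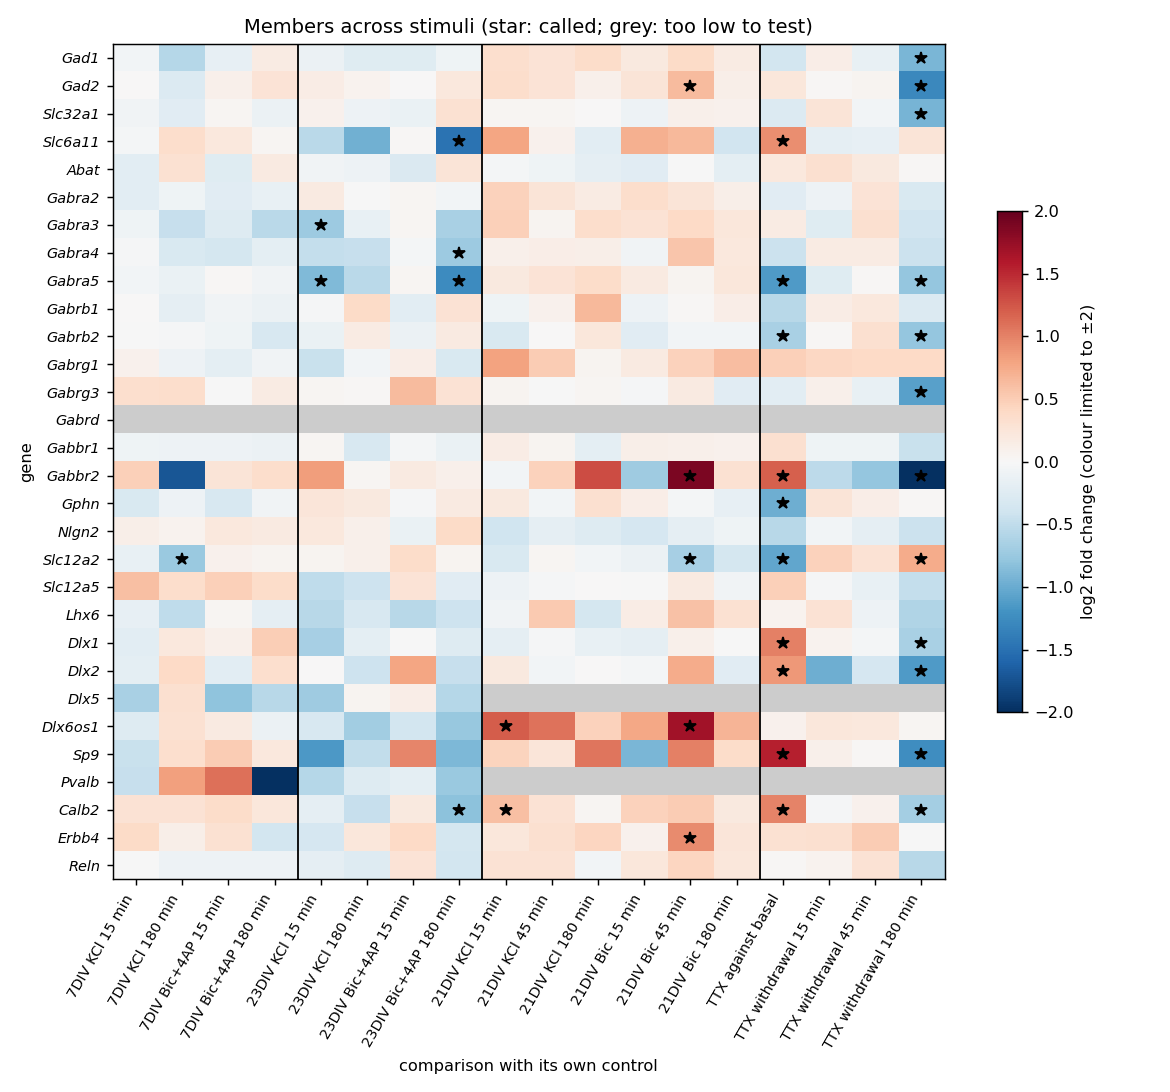
Log2 fold change of each gene (rows) in each comparison with its own control (columns), with colour limited to ±2, stars for calls and grey for genes too low to test. Calls are few under KCl and bicuculline, Gabra5 is called lower in 4 columns, and the last column, 180 min of TTXw, holds 12 calls, of which 11 are lower.

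In the stimuli experiment at 21DIV, KCl and bicuculline alone moved few of these genes, and most of those that moved rose. The most calls came at 45 min of bicuculline, where 4 of 27 genes were called higher and 1 lower, against 7.45% of all 12027 genes tested (4.50% higher and 2.95% lower). The median of the 27 was 0.39, against -0.01 over all genes tested.

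Gad2 was at 599 and 633 CPM after 45 min of bicuculline against 375, 432 and 385 in 21DIV basal libraries, and both stimulated libraries were above all basal ones (log2 fold change 0.63 ± 0.12, SE, adjusted p = 3.01e-04). Gad1 was at 813 and 791 CPM against 645, 655 and 536 (log2 fold change 0.39, adjusted p = 0.0469), which is under 1.5-fold, and Slc32a1 at 271 and 277 against 247, 266 and 251 (log2 fold change 0.11, adjusted p = 0.710). Dlx6os1 was at 34.5 and 20.8 CPM against 8.31, 7.44 and 9.86 (log2 fold change 1.67 ± 0.30, SE, adjusted p = 2.35e-04), and this call held without each library in turn. Erbb4 was at 38.8 and 35.9 CPM against 18.1, 19.7 and 20.5 (log2 fold change 0.94, adjusted p = 0.0125), lost without any one of 3 of the 5 libraries, and Slc12a2 at 24.4 and 19.8 against 29.8, 37.6 and 37.9 (log2 fold change -0.67, adjusted p = 0.0389), lost without any one of 4. Gabbr2 rested on 1 library, at 10.9 and 46.1 CPM against 5.44, 11.9 and 6.82 (log2 fold change 1.89, adjusted p = 0.00610), and was 0.48 without the second.

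No gene was called at 15 min of bicuculline (6 at an unadjusted p under 0.05, 3.42% of all genes) or at 180 min (1, 0.765%), by edgeR or DESeq2. KCl gave 2 calls at 15 min, both higher, against 7.22% of all genes (4.52% higher and 2.69% lower), and none at 45 or 180 min by either tool (4 and 6 genes at an unadjusted p under 0.05, 0.765% of all genes in each). Dlx6os1 was at 14.6 and 24.3 CPM after 15 min of KCl (log2 fold change 1.21, adjusted p = 0.0100) and was 0.80 without the second stimulated library. Calb2 was at 86.1 and 75.4 CPM against 49.9, 57.7 and 52.7 (log2 fold change 0.60, adjusted p = 0.0222), lost without any one of 4 of the 5 libraries. Gabra5, which fell at 15 min of KCl in 23DIV cultures of the maturation experiment, was here at 451 and 492 CPM against 425, 379 and 431 (log2 fold change 0.20, adjusted p = 0.537). The 2 experiments were separate, with separate control libraries, and the difference between them was not tested. Astrocyte marker sums were 5051 to 5679 CPM at 45 min of bicuculline, 4599.6 to 4653 at 15 min of KCl and 2488 to 3042 in basal libraries, with 7 and 5 of 12 markers called higher. On the scale of neuronal markers, where the median of all genes was -0.10 at 45 min of bicuculline and -0.15 at 15 min of KCl, Gad2 at 45 min of bicuculline (0.55, adjusted p = 0.00751) was under 1.5-fold and Calb2 at 15 min of KCl (0.46, adjusted p = 0.114) lost its call, while the other 5 calls held.

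Bicuculline was also compared with KCl directly at each time. No gene of 27 was called by edgeR or DESeq2 at 15, 45 or 180 min, where 0, 0.682 and 0.723% of all genes were called and 1, 5 and 3 genes had an unadjusted p under 0.05. At 45 min Gad2 differed by 0.36 on the log2 scale, bicuculline minus KCl, with a 95% interval of 0.10 to 0.62, and Dlx6os1 by 0.59 with an interval of -0.03 to 1.21. The missed threshold does not show that the stimuli act alike.

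After 48 h of TTX, 3 postsynaptic genes and the chloride importer were lower, and 3 interneuron transcription factors, calretinin, GAT3 and a GABA-B subunit were higher. Of 27 genes, 6 were called higher and 4 lower in basal TTX than in 21DIV basal libraries, against 21.6% of all genes (10.8% in each direction). On the receptor side, Gabra5 was at 154, 153, 242 and 198 CPM in basal TTX against 425, 379 and 431 in basal libraries (log2 fold change -1.14 ± 0.14, SE, adjusted p = 5.65e-08). Gabrb2, a beta subunit, was at 149.7, 153, 163 and 158 CPM against 240.1, 245 and 249.8 (log2 fold change -0.65, adjusted p = 2.93e-05). Gphn was at 42.6, 31.9, 30.8 and 39.1 CPM against 81.1, 66.98 and 65.96 (log2 fold change -0.98, adjusted p = 8.65e-07). None of these 3 pairs of groups overlapped. Gabrb1 (-0.55) and Nlgn2 (-0.56) had an adjusted p under 0.05 below 1.5-fold, and Gabra3 (0.16) and Gabrg3 (-0.20) overlapped. The GABA-B genes had positive values, with Gabbr1 at 395, 359, 391 and 367 CPM against 299.7, 313 and 291 (log2 fold change 0.33, adjusted p = 0.00960), below 1.5-fold, and Gabbr2 at 25.3, 12.2, 3.58 and 27.8 against 5.44, 11.9 and 6.82 (log2 fold change 1.19, adjusted p = 0.0360), with overlapping groups and a call lost without any one of 4 of the 7 libraries.

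Slc12a2 was at 14.6, 20.9, 13.6 and 18.1 CPM in basal TTX against 29.8, 37.6 and 37.9 (log2 fold change -1.03, adjusted p = 3.65e-05), and Slc12a5 at 220.2, 263, 307 and 287 against 192, 188 and 203 (log2 fold change 0.47, adjusted p = 0.00223), below 1.5-fold. The count of Slc12a5 over Slc12a2 within a library was 12.6 to 22.6 in basal TTX and 5.00 to 6.45 in basal libraries. Gad1 was at 512, 486, 424 and 467 CPM against 645, 655 and 536 (log2 fold change -0.37, adjusted p = 0.00704), below 1.5-fold, while Gad2 was at 459, 497, 457 and 437 against 375, 432 and 385 (log2 fold change 0.22, adjusted p = 0.1005), so that Gad2 over Gad1 was 0.897 to 1.08 in basal TTX and 0.582 to 0.717 in basal libraries. Neither ratio overlapped between the groups.

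On the interneuron side, Dlx1 was at 182, 199, 217 and 191 CPM in basal TTX against 86.2, 106 and 101 (log2 fold change 1.01 ± 0.14, SE, adjusted p = 2.96e-07). Dlx2 was at 16.6, 16.8, 12.9 and 16.996 against 8.31, 9.68 and 8.34 (log2 fold change 0.86, adjusted p = 0.00701), and Sp9, a zinc-finger factor of interneuron progenitors, at 17.96, 11.6, 14.3 and 10.8 against 4.30, 7.07 and 2.27 (log2 fold change 1.55, adjusted p = 3.73e-04). Calb2 was at 101, 102, 123 and 99.4 CPM against 49.9, 57.7 and 52.7 (log2 fold change 0.99, adjusted p = 1.54e-06). All 4 were without overlap and kept the call without each library in turn. The Dlx2 call was lost with a replicate block (0.75, adjusted p = 0.0990) and with counts thinned to the smallest library (0.80, adjusted p = 0.0707), both by edgeR's quasi-likelihood test. Lhx6 (0.07), Dlx6os1 (0.08), Erbb4 (0.30) and Reln (0.02) were not called. Beside the 21.6% of all genes called in TTX, 6 of 14 other interneuron factors were called higher and 2 lower, among them Sox6, which acts downstream of Lhx6, higher by 1.33. Of 22 other interneuron markers 4 were called higher and 3 lower, with Nos1, neuronal nitric oxide synthase, at 1.59 and Crhbp, which binds corticotropin-releasing hormone, at -1.67. Slc6a11 was higher as well, at 9.31, 27.3, 17.2 and 26.04 CPM against 11.2, 10.05 and 10.99 (log2 fold change 0.94, adjusted p = 0.00870). Its groups overlapped, and without the fourth basal TTX library it was 0.76 (adjusted p = 0.0636). All 12 astrocyte markers, of which it is one, were called higher.

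The astrocyte marker sums of basal TTX and basal libraries did not overlap, and neither did the neuronal sums given above, of whose 6 genes 1 was called lower. Oligodendrocyte marker sums were 2250 to 2299 CPM in basal TTX against 815 to 1257 in basal libraries, with 6 of 9 tested called higher. The median log2 fold change of the 6 neuronal markers was 0.02. Stmn2 had the highest median level among them, 3589 CPM over the 27 libraries of this experiment, so their sum follows it most. On the scale of neuronal markers the median of all genes was 0.39 higher in TTX and 85.6% of calls over all genes were rises, against 49.9% on the usual scale. All 6 genes called higher kept the call there, which the upward shift of this scale favours. Of those called lower, Gabra5 (-0.76, adjusted p = 8.08e-06) and Slc12a2 (-0.64, adjusted p = 0.0115) kept it. Gabrb2 was -0.26 (adjusted p = 0.0837) and Gphn -0.58 (adjusted p = 0.00411), the latter just under 1.5-fold. A further 6 genes were called higher on this scale only, at 0.86 for Gabrg1, 0.85 for Slc12a5, 0.72 for Gabbr1, 0.69 for Erbb4, 0.61 for Gad2 and 0.61 for Abat, so that it gave 12 calls higher and 2 lower.

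Withdrawal of TTX was compared with basal TTX. No gene was called at 15 or 45 min by edgeR or DESeq2 (3 and 2 at an unadjusted p under 0.05), against 0 and 0.382% of all genes. At 180 min, 12 of 27 were called, 1 higher and 11 lower, against 14.0% of all genes (7.33% higher and 6.69% lower). The median of the 27 was -0.47, against 0.02 over all genes.

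The 3 RNAs for making and packing GABA fell. Gad2 was at 190.4, 177 and 199 CPM at 180 min of TTXw against 459, 497, 457 and 437 in basal TTX (log2 fold change -1.29 ± 0.11, SE, adjusted p = 1.70e-11). Gad1 was at 251, 264 and 237 CPM against 512, 486, 424 and 467 (log2 fold change -0.91 ± 0.12, SE, adjusted p = 1.60e-07), and Slc32a1 at 107, 124 and 97.2 against 231, 249, 158 and 199.6 (log2 fold change -0.93 ± 0.13, SE, adjusted p = 1.46e-06). In all 3 genes every withdrawal library was below every basal TTX library, and the calls held without each library in turn. Abat (0.02) and Slc6a11 (0.25) overlapped and were not called.

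**Figure D4:**
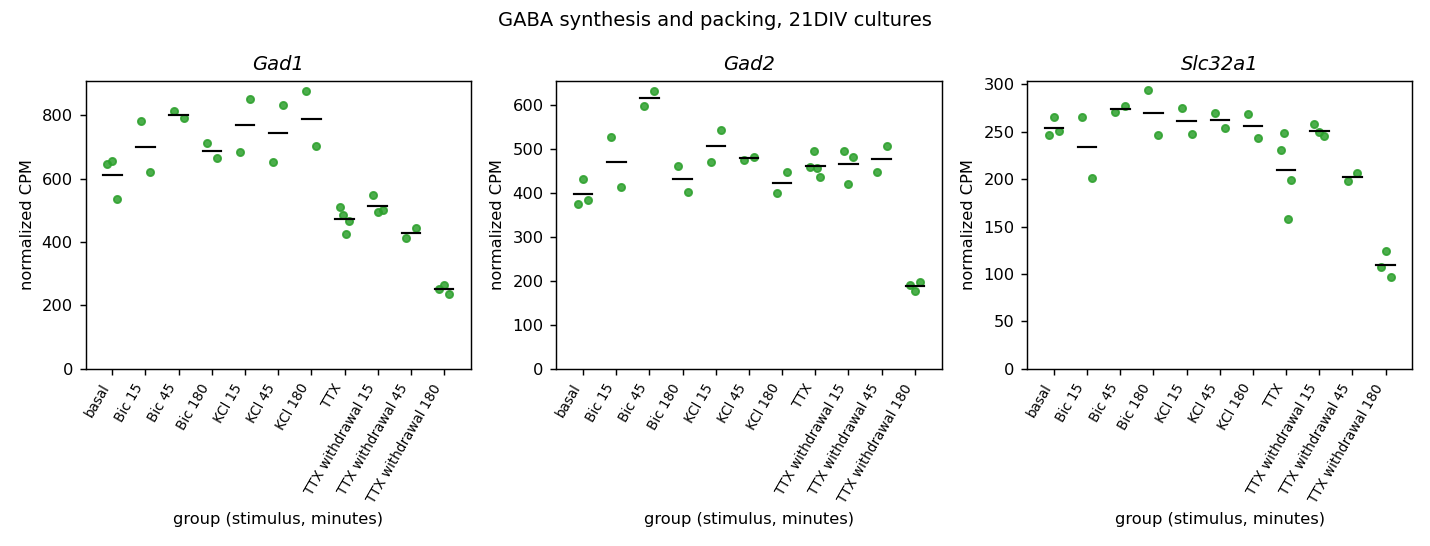
CPM of Gad1, Gad2 and Slc32a1 in each 21DIV library by group, with the group mean as a line. At 180 min of TTXw the 3 libraries lie below all libraries of every other group in each panel, with Gad2 between 177 and 199 CPM.

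Among receptor genes, Gabra5 was at 88.3, 88.9 and 156 CPM against 154, 153, 242 and 198, where 1 withdrawal library reached the TTX range (log2 fold change -0.77, adjusted p = 4.68e-04). Gabrb2 was at 112, 64.8 and 101 against 149.7, 153, 163 and 158 (log2 fold change -0.77, adjusted p = 2.71e-05) and Gabrg3, a gamma subunit, at 17.01, 10.4 and 18.2 against 30.6, 37.7, 32.2 and 26.04 (log2 fold change -1.08, adjusted p = 3.90e-04), both without overlap. Without the second withdrawal library Gabrb2 was -0.55, under 1.5-fold. Gabbr2 fell from 25.3, 12.2, 3.58 and 27.8 CPM to 3.27, 0.946 and 2.28 (log2 fold change -3.13, adjusted p = 4.48e-04), with the spread already given. Gphn was at 41.2, 38.8 and 29.6 CPM and stayed within the TTX range (log2 fold change 0.02, adjusted p = 0.9504).
Slc12a2 was the only gene of the 30 called higher, at 26.8, 32.2 and 25.8 CPM against 14.6, 20.9, 13.6 and 18.1 (log2 fold change 0.74, adjusted p = 0.00783), and was 0.62 (adjusted p = 0.0786) without the second withdrawal library. Slc12a5 was at 181, 173 and 232 CPM against 220.2, 263, 307 and 287 (log2 fold change -0.47, adjusted p = 0.00486), below 1.5-fold.

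The interneuron genes that were higher in TTX were lower after withdrawal, in comparisons that share the basal TTX libraries. Dlx2 was at 7.20, 7.10 and 7.59 CPM at 180 min of TTXw (log2 fold change -1.13, adjusted p = 0.00362), and Sp9 at 5.89, 6.15 and 4.56 (log2 fold change -1.25, adjusted p = 0.0112). Dlx1 was at 91.6, 137 and 150.3 CPM (log2 fold change -0.64, adjusted p = 9.03e-04) and Calb2 at 44.5, 77.1 and 75.2 (log2 fold change -0.69, adjusted p = 0.00109), and without the first withdrawal library these were -0.47 and -0.49, both under 1.5-fold. Reln was at 28.8, 31.7 and 28.9 CPM against 41.9, 50.5, 29.3 and 50.3 (log2 fold change -0.55, adjusted p = 0.0290), below 1.5-fold, and Lhx6 (-0.60), Erbb4 (-0.01) and Dlx6os1 (0.03) were not called. Beside the 6.69% of all genes called lower at 180 min of TTXw, 13 of 22 other interneuron markers were called lower and none higher, among them the peptides Sst (-1.17) and Npy (-1.24). Of 13 genes of chloride control 3 were called lower, such as Slc4a10 (-1.43), and 1 higher, Car2 (0.95).

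**Figure D5:**
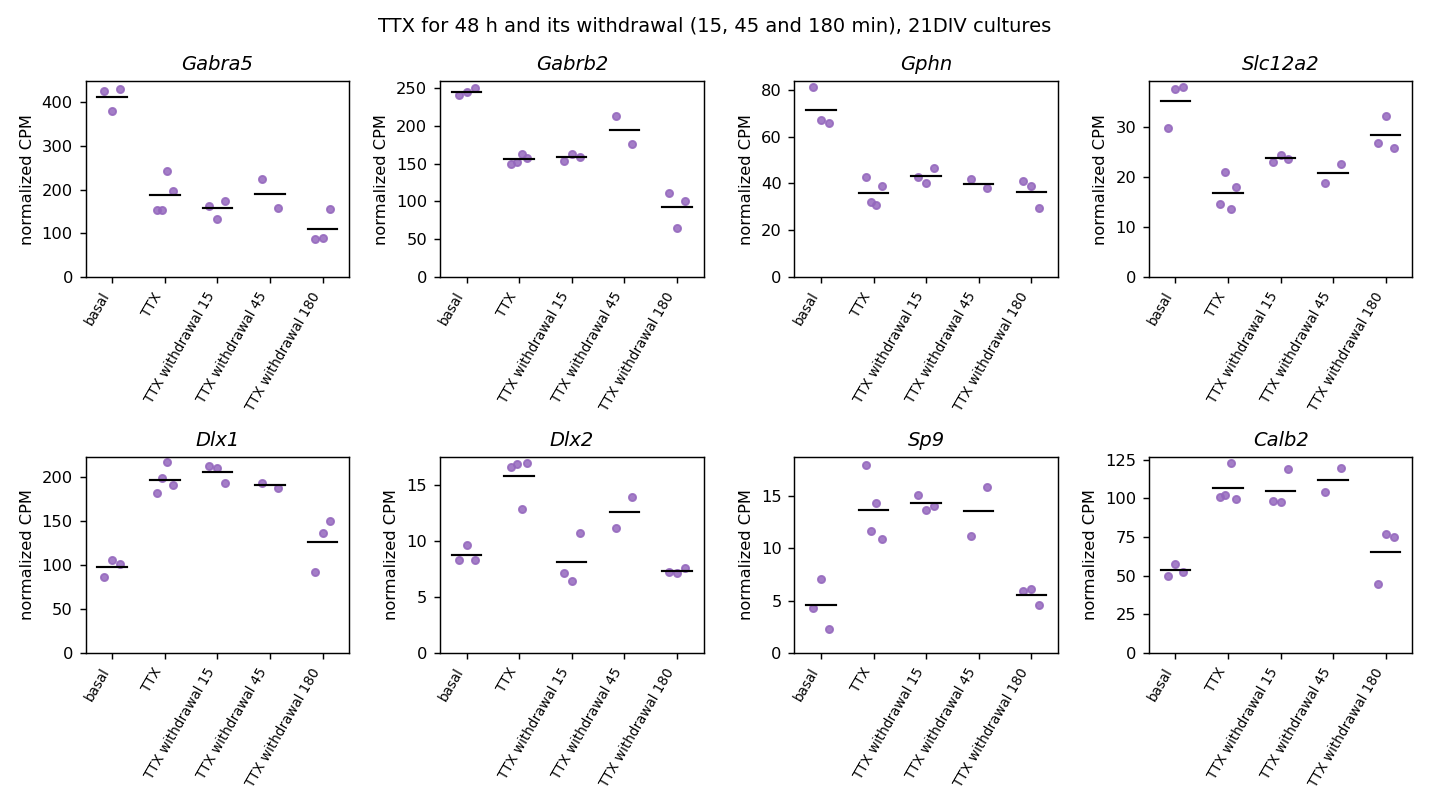
CPM of 8 genes in 21DIV basal, basal TTX and TTXw libraries at 15, 45 and 180 min, with the group mean as a line. Gabra5, Gabrb2, Gphn and Slc12a2 are lower in TTX than in basal libraries, Dlx1, Dlx2, Sp9 and Calb2 are higher, and the latter 4 are lower again at 180 min of TTXw.

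Cell markers moved with this comparison too. Neuronal marker sums were 3664 to 4635 CPM at 180 min of TTXw against 5819 to 6990.4 in basal TTX, with 3 of 6 markers called lower, and astrocyte sums 10499 to 14949 against 7067 to 8219, with 6 of 12 called higher. Oligodendrocyte marker sums were 3252 to 4041 CPM against 2250 to 2299, with 6 of 9 tested called higher. Scaled to the 6 neuronal markers, the median of all genes was 0.64 higher after withdrawal and 99.1% of calls over all genes were rises, against 52.3% on the usual scale. Gad2 (-0.68, adjusted p = 1.55e-05) and Gabbr2 (-2.53, adjusted p = 0.00146) remained called lower. Slc12a2 (1.37, adjusted p = 3.48e-06) remained called higher, which the upward shift of this scale favours. The other 9 genes lost the call, with Gad1 at -0.29 (adjusted p = 0.0604), Slc32a1 at -0.31 (adjusted p = 0.0902), Gabra5 at -0.16 (adjusted p = 0.338), Gabrb2 at -0.16 (adjusted p = 0.319), Dlx1 at -0.02 (adjusted p = 0.908) and Calb2 at -0.06 (adjusted p = 0.765). The largest values among them were Sp9 (-0.62, adjusted p = 0.150), Dlx2 (-0.51, adjusted p = 0.151) and Gabrg3 (-0.47, adjusted p = 0.0768). None of the 12 changed sign. On this scale 5 further genes were called higher, at 1.02 for Gabrg1, 0.89 for Slc6a11, 0.65 for Gphn, 0.65 for Abat and 0.62 for Erbb4, so that the balance turned from 1 higher and 11 lower to 6 higher and 2 lower. How far the falls on the usual scale go with the smaller neuronal share of the RNA was not tested beyond this rescaling.

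Gad1 had a second 3′ end in the tables. Its main transcript is the one with the most counts of 5 RefSeq transcripts, a predicted record whose own coordinates are not given here. The full-length form of the gene lies at chr2:70562042-70602014 (Gad1-201 in GENCODE). The second transcript is a shorter form at chr2:70562196-70584600 (Gad1-207) that ends within the span of the full-length form. This was looked at after the data were seen. The short form had 11, 36 and 18 counts in the 3 libraries at 180 min of TTXw and 6, 11, 2 and 10 in the 4 basal TTX libraries. It rose by 1.70 ± 0.41 (SE, adjusted p = 0.00237) on the log2 scale while the main transcript fell. Of the counts on both, the short form held 4.77% ± 1.75 (SD, n = 3) after withdrawal and 0.794% ± 0.394 (SD, n = 4) in basal TTX, with no overlap. An exact permutation test, 2-sided, of the share gave p = 0.0571, the smallest that 3 against 4 libraries allow. The other 24 libraries of the stimuli experiment, basal TTX included, held 0.163 to 1.30%, and the 28 of the maturation experiment 0 to 2.27%. The short form was called in no other comparison in which it was tested.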

How the data were processed

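RNA from 55 cultures was sequenced as 3′-end (CEL-Seq2) libraries. Per the study's methods, the authors aligned reads to mm10 with STAR and counted them per RefSeq transcript with ESAT. The values used are the raw counts per transcript as deposited by the authors, without normalization. Collapsing by molecular identifier and a strand setting are not given in the sources used here. The tables held 97700 and 96722 transcripts, of which 80.8% and 80.9% matched a gene symbol through RefSeq; the rest held 18.5% and 19.2% of counts. Columns of the submitters' normalized values or comparisons were not used.

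Each gene was represented by the transcript with the most counts, giving 28492 and 28216 genes. edgeR 4.0.16 in R 4.3.3 was run with TMM normalization and the quasi-likelihood test on genes over 5 CPM in at least 2 libraries, with Benjamini-Hochberg adjustment over all genes tested. A gene was called at an adjusted p under 0.05 and at least 1.5-fold, and differences in response between stages at an adjusted p under 0.05 alone. The basal stages were fitted on their 6 libraries, and all else in 1 fit per experiment, of 28 and 27 libraries. A SE is the log2 fold change over the square root of its F statistic. DESeq2 1.42.0, other size factors, no filter, thinned counts, summed transcripts, other samples in the fit, a replicate block and each library left out were the alternatives, and scaling to neuronal markers and second transcripts were added after the data were seen. The test was tested on simulated counts.

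The 30 genes and the further lists were chosen with earlier results of these data known. All 30 genes are described whatever their values, and from each further list at most 4 called genes per comparison were open to naming, those that changed most among genes averaging 4 or more on the log2 CPM scale. Some genes of these lists, and the list of other GABA-A subunits, are not reported here. Python 3.11.15 with pandas 2.3.3, numpy 2.4.6, scipy 1.17.1 and matplotlib 3.10.9 did the rest. No replicate pair of a group agreed within sampling noise (lowest chi-square per degree of freedom 2.17). Intervals on counts cover counting error only, since reads may not be independent molecules.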

Additional observations from a re-analysis of the deposited data

Results flagged for a closer look

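In the 4 basal TTX libraries, the lowest Dlx2 value, 12.9 CPM, lay far from the other 3, with a gap of 0.911 of the whole range. The highest Calb2 value, 123.0 CPM, lay apart in the same way, with a gap of 0.882. Both belong to the third basal TTX library, and both genes kept their calls in TTX against basal without it. Chance alone sets apart about 1 in 20 groups of this kind.

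The response to stimulation differed between 23DIV and 7DIV in 3 tests of the difference itself, by edgeR's quasi-likelihood test. These were Slc12a5 at 15 min of KCl (-1.12 on the log2 scale, adjusted p = 0.0119), Gabra5 at 180 min of bicuculline with 4-aminopyridine (-1.19, adjusted p = 0.00810) and Calb2 in the same comparison (-1.04, adjusted p = 0.0476). In each the value at 23DIV was the lower.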

How the results depend on the processing

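Of 51 called values, 20 kept direction and call under every setting and with every library left out, and of 738 alternative values 635 kept both, 103 lost the call and 0 reversed. For KCl at 7DIV (1 call) there were 2 calls without the filter on low counts and 0 with a replicate block. For KCl at 23DIV (2 calls) there was 1 with other samples in the fit, with a replicate block, with neuronal scaling and with summed transcripts. For 21DIV bicuculline (5 calls) there were 3 with summed transcripts and 3 with thinned counts. For 21DIV KCl (2 calls) there were 4 with other samples in the fit, 1 with neuronal scaling and 1 with summed transcripts. For bicuculline against KCl (0 calls) there was 1 without the filter, Gabbr2. For TTX against basal (10 calls) there were 7 with thinned counts, 8 with a replicate block, 8 with summed transcripts, 12 without the filter and 14 with neuronal scaling. Between basal stages (12 calls) there were 9 with summed transcripts. For 23DIV bicuculline with 4-aminopyridine (4 calls) there were 3 with other samples in the fit, with neuronal scaling and with thinned counts. The causes were not tested. With single libraries left out, calls ranged from 11 to 13 between stages, 0 to 2 for 7DIV KCl, 0 to 0 for 7DIV bicuculline with 4-aminopyridine, 1 to 5 for 23DIV KCl, 2 to 5 for 23DIV bicuculline with 4-aminopyridine, 1 to 3 for differences in response, 9 to 11 for TTX, 2 to 5 for 21DIV bicuculline, 0 to 2 for 21DIV KCl, 10 to 14 for TTXw and 0 to 1 for bicuculline against KCl. Where this leaves 1 library in a group, it is assumed to vary like the others.

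Replicate numbers are shared between groups, but no label says that they mark a shared culture. The correlation of deviations over same-numbered pairs had a median of -0.0117 for basal stages, 0.00106 for the maturation and 0.00785 for the stimuli experiment. In the latter 2, 3 of 109 and 1 of 96 pairs passed 0.1. The basal stages had only 2 such pairs, and the maturation experiment ranged from -0.257 to 0.125. These values cannot decide whether same-numbered samples came from a shared culture.

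Gabrd, Dlx5 and Pvalb were below the filter of 5 CPM in the comparisons named, so changes in them were not measured there. Counting error limits genes near that filter, such as Gabbr2, Sp9 and Dlx2.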

Other observations

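A second transcript of Gabra2, tested as a feature of its own after the data were seen, was called higher at 45 min of TTXw than in basal TTX (log2 fold change 1.53, adjusted p = 0.00590 by edgeR's quasi-likelihood test). It held 74 and 67 counts in the 2 withdrawal libraries and 24, 25, 23 and 21 in the 4 basal TTX libraries. The 3 libraries at 15 min held 41, 14 and 25 counts, and the 3 at 180 min 29, 14 and 16. A second transcript of Gad2 moved as the main one did at 180 min of TTXw (-1.12, adjusted p = 0.00382) and was called higher in basal TTX than in basal libraries (0.89, adjusted p = 0.00549).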
